A study of Rattus norvegicus with 6 samples.

Results

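Complement is a cascade of blood proteins and cell surface regulators, and 9 of its genes are described here in cultured rat stromal cells: C1s, C4a, C4b and C2 of the classical pathway, Cfb of the alternative pathway, C3 where the pathways meet, and the regulators Serping1, Cd55 and Cd59. They were chosen by name, with earlier results of these data known. Every probe set whose gene symbol in the array annotation held 1 of these names was taken. That gave 7 probe sets for 8 genes of the 10959 on the array. C1s, C3, Serping1 and Cd55 have probe sets of their own, 2 in the case of Cd55, while C4a and C4b share 1 probe set and C2 and Cfb share another, so the genes within each of these pairs cannot be told apart. No probe set carries the name Cd59. The RefSeq gene table used here lists Cd59 as a synonym of Cd59b, which is described below with the other complement genes.

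The study set mesenchymal stromal cells grown from peripheral blood against those grown from bone marrow. Each of 3 GFP transgenic rats, labelled S4, S5 and S6, gave 1 blood culture and 1 marrow culture, so that there are 3 blood cultures and 3 marrow cultures, paired by animal. All 6 cultures carry the GFP transgene, were plated as mononuclear cells in the same medium and were used at passage 2, and each was measured on 1 Affymetrix RAE230A array. The labels give neither the age nor the strain of the rats, and no treatment. The labels' protocols name no sorting step and no promoter for the transgene.

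Values are log2 signals as deposited, and a difference is the blood value minus the marrow value of the same rat, averaged over rats and given with its standard error. The base of the logarithm was inferred from the range of values, and folds rest on it. A probe set was tested where it lay above the median of all values, 8.18, on all 3 arrays of at least 1 group. In a limma fit that paired the cultures by rat, with Benjamini-Hochberg adjustment over 7625 tested probe sets, 133 were lower and 106 higher in blood cultures at an adjusted p under 0.05, or 239 in all against 144 when the pairing was left out. Array medians were 8.12 to 8.22, and precision is limited by there being only 3 pairs of arrays. Of 14 stromal markers all were on the array and 13 passed the filter, all but Thy1 (CD90, described below), with vimentin (Vim) at 12.72 to 12.93 in blood cultures and 12.72 to 12.95 in marrow cultures. Of 9 endothelial and epithelial markers on the array none was bright enough, and of 10 granulocyte and lymphocyte markers 2 were. Of 15 macrophage markers 11 passed the filter, and they are described below.

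In the classical pathway, antibody or other ligands engage the C1 complex, whose protease C1s cleaves C4 and C2 to build an enzyme that cleaves C3. The alternative pathway builds its own C3-cleaving enzyme from C3 and factor B. Host cells hold the cascade in check with the C1 inhibitor in the fluid phase and with CD55 and CD59 on their membranes. Besides the liver, fibroblasts and macrophages are known to make several of these proteins.

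Blood cultures had less C4 and less C1 inhibitor signal than marrow cultures of the same rats. The shared C4a and C4b probe set fell by 3.41 on the log2 scale, or 10.6-fold, and Serping1 fell by 2.65, or 6.28-fold. The shared C2 and Cfb probe set and both Cd55 probe sets were also lower on average but did not pass the test, C1s was lower by less, and C3 alone was slightly higher. Of the 7 probe sets, 6 passed the filter, and of these 2 were called lower and none higher in limma (all 6 had an unadjusted p under 0.05, against 15.2% of all tested probe sets), where 3.13% of all tested probe sets were called, 1.74% lower and 1.39% higher. In 4 of those 6 all blood arrays lay below all marrow arrays, and in 1, that of C3, all lay above. Over all tested probe sets, 12.1% and 7.54% were parted in these directions. Because the genes were chosen with earlier results of these data known, these counts are description and no independent support. In addition, C4a/C4b and both Cd55 probe sets passed the filter through marrow cultures alone. In bulk RNA, fewer cells of a type and less RNA per cell cannot be told apart.

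**Figure D1:**
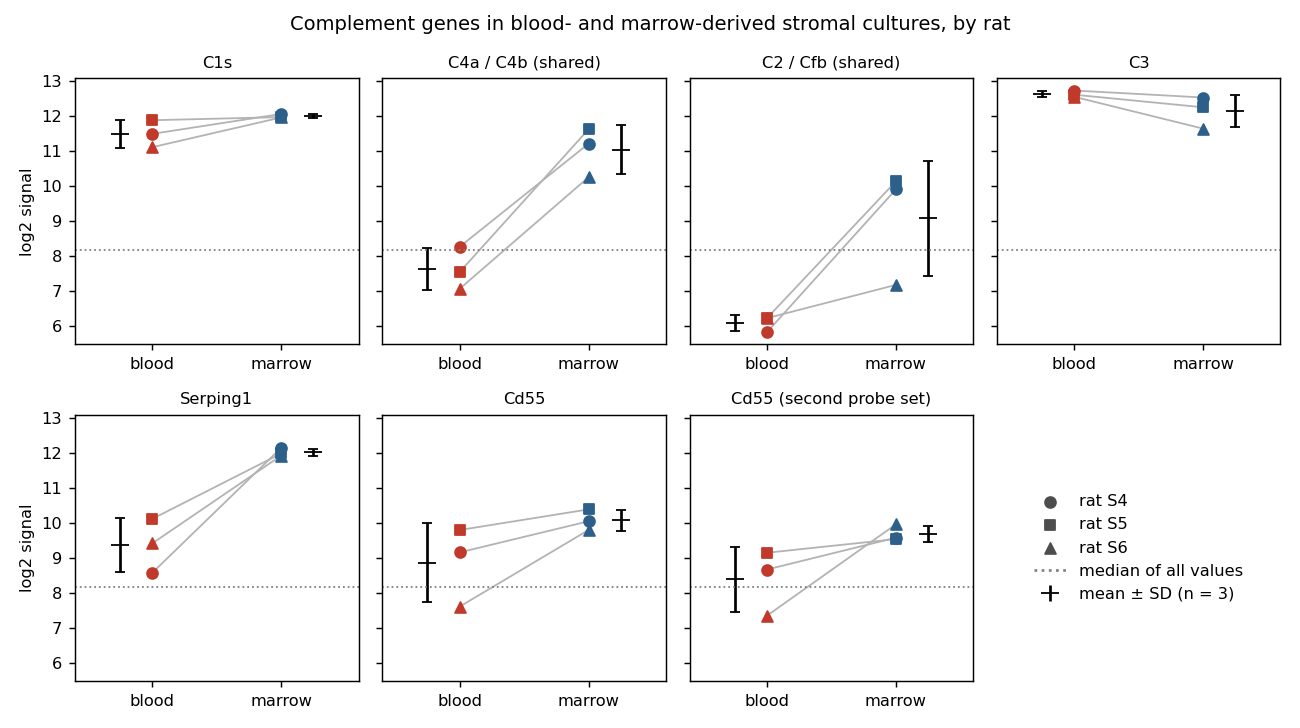
Log2 signal of the 7 complement probe sets on each array (y axis) in blood and marrow cultures (x axis), with lines joining the cultures of 1 rat, black bars for mean ± SD (n = 3) and a dotted line at the median of all values, 8.18. C4a/C4b and Serping1 drop in every rat in blood cultures, C2/Cfb is at 5.83 to 6.23 in all blood cultures, and C3 stays between 11.65 and 12.74.

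C4, the component that C1s cleaves and that then anchors the next steps to a surface, showed the widest difference. C4a/C4b stood at 8.27, 7.55 and 7.07 in the blood cultures of rats S4, S5 and S6, against 11.22, 11.63 and 10.26 in their marrow cultures. All 3 blood arrays lay below all 3 marrow arrays, and only that of rat S4 lay above the table's median. The means were 7.63 ± 0.60 in blood and 11.04 ± 0.70 in marrow cultures (SD, n = 3 each), and the difference of -3.41 ± 0.23 had a 95% interval of -3.97 to -2.85 (limma, adjusted p = 0.0017). It was the 14th most negative of the 7625 differences. Because blood levels lie mostly below the median, where no background level is known, the fold is approximate. For the same reason the probe set passed the filter through marrow cultures alone. Its p-value in the filtered fit therefore adds no independent support. In the limma fit without a filter its adjusted p was 0.0232. The difference was -3.64 without rat S4, -3.07 without rat S5 and -3.52 without rat S6, and only without rat S4 did it miss the threshold (adjusted p = 0.165), in a fit where no probe set of the whole array passed and 797 had an unadjusted p under 0.05.

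Since 1 probe set stands for both C4 genes, their promoters are printed to show how alike the 2 genes are just upstream. RefSeq places both on chromosome 20 in build GRCr8, C4a at chr20:4010107-4010406, plus strand and C4b at chr20:4201729-4202028, plus strand, each window running from about 250 bases before the gene's start to 50 after it. The capitals mark an E-box, CACGTG, a motif chosen after the sequences were read.
C4a: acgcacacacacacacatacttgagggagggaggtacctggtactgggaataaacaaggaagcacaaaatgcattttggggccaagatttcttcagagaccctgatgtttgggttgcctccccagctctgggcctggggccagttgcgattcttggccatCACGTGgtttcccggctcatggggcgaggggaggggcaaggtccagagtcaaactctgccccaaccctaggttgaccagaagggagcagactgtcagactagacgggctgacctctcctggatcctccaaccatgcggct
C4b: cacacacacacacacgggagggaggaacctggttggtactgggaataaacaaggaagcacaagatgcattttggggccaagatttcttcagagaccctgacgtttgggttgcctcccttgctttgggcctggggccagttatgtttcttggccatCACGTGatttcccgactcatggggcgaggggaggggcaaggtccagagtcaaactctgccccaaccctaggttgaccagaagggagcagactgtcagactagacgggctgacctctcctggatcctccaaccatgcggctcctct
In a local alignment the 2 promoters were identical in 279 of 299 columns, or 93.3%, and each held 1 E-box, a motif present in 6.42% of 33469 RefSeq promoters of this length.

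C2, the protease that pairs with C4, and Cfb, its counterpart in the alternative pathway, are read by 1 probe set. C2/Cfb stood at 5.83, 6.23 and 6.23 in the blood cultures of rats S4, S5 and S6, against 9.91, 10.14 and 7.18 in their marrow cultures. The groups did not overlap, with blood lower, as in 9.35% of the 15866 probe sets without a filter, and the marrow culture of rat S6 was far dimmer than the other marrow cultures. Its paired differences were -4.08, -3.91 and -0.95. Since that 1 array lay below the median, the probe set missed the filter. In the limma fit without a filter it differed by -2.98 ± 0.66 (95% interval -4.69 to -1.27, adjusted p = 0.214), and it differed by -4.00 without rat S6 (adjusted p = 0.0743 in the fit without a filter, 0.00399 in the filtered fit of the other 2 rats). Leaving out rat S6 removes the dim marrow array, and the probe set then passes the filter through marrow cultures alone. The p-values without rat S6 therefore add no support. In the unfiltered fit of all 3 rats 0.517% of 15866 probe sets passed, C4a/C4b (adjusted p = 0.0232) being the only one of the 7 complement probe sets among them. All 3 blood values lie well below the table's median, so no fold is given.

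C1s, the protease that opens the classical pathway, was bright on every array. It stood at 11.50, 11.89 and 11.12 in the blood cultures of rats S4, S5 and S6, against 12.07, 11.98 and 11.97 in their marrow cultures. Blood values lay below all marrow values, by only 0.09 in rat S5. The difference of -0.50 ± 0.17 (95% interval -0.92 to -0.08) did not pass (limma, adjusted p = 0.239).

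C3, whose cleavage is the common step of all pathways, went the other way. It stood at 12.74, 12.62 and 12.56 in the blood cultures of rats S4, S5 and S6, against 12.54, 12.26 and 11.65 in their marrow cultures. The 3 blood cultures lay close together just above all marrow cultures, near the top of the scale, which ends at 13.31. The difference of 0.49 ± 0.17 (95% interval 0.08 to 0.90), or 1.40-fold, did not pass (limma, adjusted p = 0.243), and its size came largely from rat S6, at 0.91 against 0.20 and 0.36 in rats S4 and S5. Within each rat C4a/C4b thus changed unequally to C3, with the log2 ratio of C4a/C4b to C3 differing by -3.15, -4.44 and -4.10 (in the order above) between blood and marrow cultures.

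The C3 promoter is shown beside those of C4 because C3 differed in the opposite direction. It lies at chr9:2201290-2201589, minus strand, in GRCr8 per RefSeq, and the capitals mark a match to TTGCNNAA, a C/EBP motif that was likewise chosen after the sequence was read.
C3: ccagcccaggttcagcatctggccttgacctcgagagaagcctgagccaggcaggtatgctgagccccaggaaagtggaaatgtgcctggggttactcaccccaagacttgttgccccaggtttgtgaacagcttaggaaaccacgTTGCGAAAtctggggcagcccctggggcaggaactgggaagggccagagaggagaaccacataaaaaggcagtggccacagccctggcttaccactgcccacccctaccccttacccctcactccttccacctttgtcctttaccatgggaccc
This motif occurs in 10.6% of the 33469 promoters, and it is absent from the C4a, C4b and Cd55 windows. Promoters of C3, C4a, C4b and Cd55 were matched. A gamma-activated site (TTCNNNGAA), an interferon-stimulated response element (GAAANNGAAA), an NF-kB motif (GGGNNTTTCC) and a TATA box (TATAAA) were searched on both strands and occur in 8.87%, 3.92%, 1.53% and 14.2% of all promoters. None of these letter strings occurs in the 4 windows, and as no window held more than 1 match in all, no matches overlapped.

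Serping1 encodes the C1 inhibitor, a serpin that inactivates C1r, C1s and the lectin pathway proteases. It stood at 8.58, 10.12 and 9.42 in the blood cultures of rats S4, S5 and S6, against 12.15, 11.99 and 11.93 in their marrow cultures. The marrow cultures were almost alike, and every blood culture was lower than all of them by more than the spread among either group. The means were 9.37 ± 0.77 in blood and 12.02 ± 0.11 in marrow cultures (SD, n = 3 each), and the difference of -2.65 ± 0.31 had a 95% interval of -3.40 to -1.90 (limma, adjusted p = 0.0114). It was the 28th most negative of all 7625. The call was lost without a filter (adjusted p = 0.0743), with quantile normalization (0.0517), with a trended robust variance (0.0582), without rat S4 (0.208, difference -2.19) and without rat S6 (0.0868, difference -2.72). The inhibitor and its target C1s changed unequally, with the log2 ratio of Serping1 to C1s differing by -3.00 in rat S4, -1.78 in rat S5 and -1.66 in rat S6.

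Cd55, or decay-accelerating factor, takes apart the C3-cleaving enzymes on the cell's own membrane. Its brighter probe set stood at 9.16, 9.80 and 7.61 in the blood cultures of rats S4, S5 and S6, against 10.05, 10.39 and 9.80 in their marrow cultures. The groups met at 9.80, and the blood culture of rat S6 lay far below the rest. Its second probe set stood at 8.67, 9.15 and 7.35 in blood cultures, against 9.58, 9.54 and 9.96 in marrow cultures of the same rats, and here the groups did not overlap. The differences were -1.22 ± 0.31 and -1.30 ± 0.40 (limma, adjusted p = 0.122 and 0.197). Both probe sets showed the widest difference in rat S6, at -2.19 and -2.61. Without rat S5, which had the narrowest, they passed at -1.54 and -1.76 (adjusted p = 0.0312 and 0.0393), and without rat S6 they were at -0.74 and -0.65 (adjusted p = 0.242 and 0.388). The blood culture of rat S6 lay below the table's median on both probe sets. With all rats and without rat S5, they thus passed the filter through marrow cultures alone. The p-values of these fits add no independent support.

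**Figure D2:**
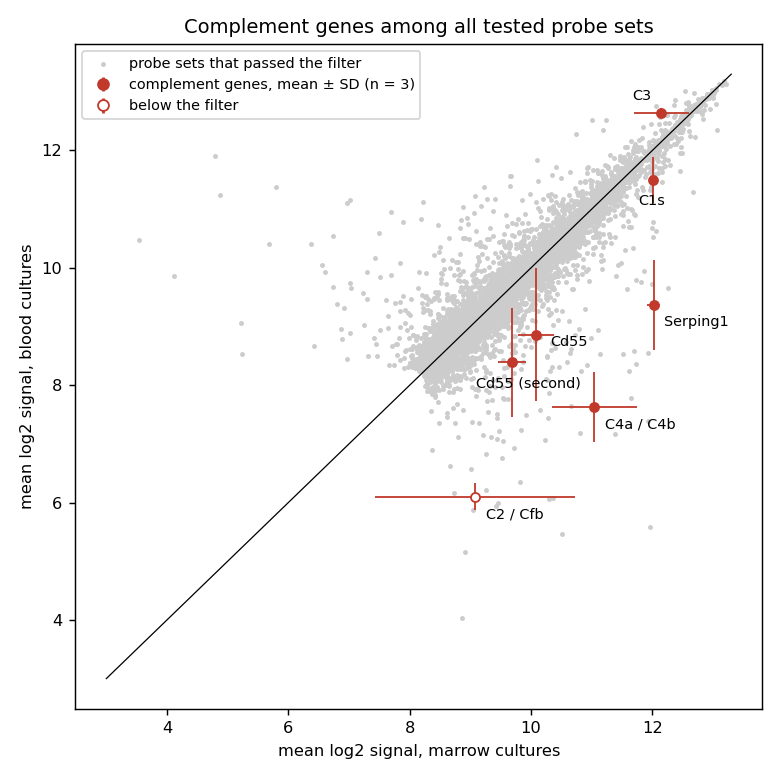
Mean log2 signal in blood cultures (y axis) against marrow cultures (x axis) for the 7625 tested probe sets (grey) and the 7 complement probe sets (red, mean ± SD, n = 3; open circle, below the filter), with the line of equality. C4a/C4b, at 7.63 and 11.04, and Serping1, at 9.37 and 12.02, lie far under the line, and C3, at 12.64 and 12.15, lies slightly over it.

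Over the arrays, all pairs of the lower probe sets correlated positively, at r = 0.54 to 0.96. As these probe sets were grouped by their lower mean in blood cultures, a positive r is partly built in. With 6 arrays, separate blocks among them cannot be told apart. C4a/C4b correlated with C2/Cfb at r = 0.91 and with Serping1 at 0.87, and C1s correlated with each Cd55 probe set at 0.96 (Pearson, 6 arrays that share 2 groups and 3 rats). C3 correlated with all others at -0.64 to -0.22. Among blood cultures that of rat S5 had the most Serping1, C1s and Cd55 signal, while that of rat S4 had the most C4a/C4b. Of 1111 other genes whose signal varied with an SD of at least 0.3, those most like Serping1 were Ebf1, Tnn and Ifitm3 (r = 0.997, 0.992 and 0.983). Those most like C1s were Bnip3, Cebpb and Socs3 (0.991, 0.988 and 0.982), those most like Cd55 were Pfkl, Ugcg and Bnip3 (0.984, 0.972 and 0.969), and those most like C3 were Bex3, Ccl6 and Phyhd1 (0.985, 0.946 and 0.939). For C4a/C4b, compared with 1112 genes, they were Medag, Glcci1 and Ift27 (0.987, 0.985 and 0.984). These are the highest of many r values over 6 arrays in 2 groups, so they are high by selection. Shared regulation was not tested.

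The wider pathway was read from a list of 52 complement genes, of which 39 were on the array and 14 had a tested probe set of their own. Of these 14, 2 fell, namely Serping1 and Masp1, none rose and 12 did not pass in limma (7 had an unadjusted p under 0.05, against 14.7% of all tested genes), where 1.72% of 5753 tested genes were called lower and 1.30% higher. The median difference of the 14 was -0.30 (-0.11 without rat S5), against -0.01 over all tested genes. The 7 were C1s, C3, Serping1 and Cd55, already described above, and C1r, Masp1 and Cd320. The count and the median of the 14 thus partly repeat the values of the chosen genes. The median lies between the differences of C1s (-0.50) and Calr (-0.11). Without Cd320, which is not known as a complement receptor, the middle difference would be that of Calr. Genes on shared probe sets, such as C4a and C4b, are not among the 14. Masp1 and Cd55 passed the filter through marrow cultures alone, and Cfp through blood cultures alone.

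Masp1, a protease of the lectin pathway, stood at 6.69, 7.24 and 7.32 in the blood cultures of rats S4, S5 and S6, against 9.42, 9.15 and 9.77 in their marrow cultures. The groups lay far apart, and the difference of -2.36 ± 0.18 passed (limma, adjusted p = 0.00254), although not without rat S4 (difference -2.18, adjusted p = 0.177). All blood values lay below the median, so the probe set passed the filter through marrow cultures alone. Its p-value in the filtered fit therefore adds no independent support. In the limma fit without a filter the adjusted p was 0.0293. The other Masp1 probe sets, both too dim to be tested, differed by 0.04 ± 0.15 and -0.28 ± 0.12 (adjusted p = 0.971 and 0.51 without a filter), so that Masp1 differed on 1 of 3 probe sets. C1r, the protease that activates C1s, was at 11.57, 11.88 and 11.47 in blood cultures against 12.10, 12.09 and 12.31 in marrow cultures. Its difference of -0.53 ± 0.16 was close in size to that of C1s and did not pass either (adjusted p = 0.177).

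The recognition subunit C1qb, typically made by macrophages, differed by -0.02 ± 0.14, while C1qa and C1qc were too dim to be tested. Properdin (Cfp), which stabilises the alternative pathway enzyme, differed by 0.20 ± 0.15 (adjusted p = 0.663). The terminal components C8b and C9, which build the membrane pore, were too dim to be tested, as was C7 on a probe set shared with a tubulin gene.

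Among the other regulators, Cd59b, which blocks the membrane pore, stood at 9.34, 8.28 and 9.43 in the blood cultures of rats S4, S5 and S6, against 8.83, 9.45 and 10.40 in their marrow cultures. The groups overlapped, rat S4 went the other way from the other two, and the difference of -0.54 ± 0.33 did not pass (adjusted p = 0.54). Cr1l, or Crry, a rodent membrane inhibitor of C3 cleavage, was at 10.64, 10.38 and 10.60 in blood cultures against 10.73, 10.17 and 10.49 in marrow cultures, a difference of 0.08 ± 0.13 (95% interval -0.23 to 0.38). Clu, or clusterin, differed by -0.03 ± 0.26, with a sign that turned when rat S5 or S6 was left out. Cfi, the protease that degrades C3b and C4b, lay below the filter and differed by -1.07 ± 0.49 (adjusted p = 0.533 in the fit without a filter). By rat it differed by -2.40 in S4, 0.18 in S5 and -0.98 in S6, and the difference was -0.40 when rat S4 was left out.

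Of the receptors and binding proteins on the list, none of 3 tested passed in limma, where 1.72% of all tested genes were called lower and 1.30% higher. An unadjusted p under 0.05 was found for 1 of the 3, against 14.7% of all tested genes. C1qbp and Calr, both known to bind C1q but with main roles in the mitochondrion and the endoplasmic reticulum, differed by 0.12 ± 0.13 and -0.11 ± 0.19, the sign of Calr turning without rat S5. Cd320, a vitamin B12 uptake receptor that was put on the list although it is not known as a complement receptor, differed by -0.53 ± 0.12 (adjusted p = 0.0918). C3ar1, C5ar1 and Itgam, receptors for complement fragments on myeloid cells, were too dim to be tested.

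**Figure D3:**
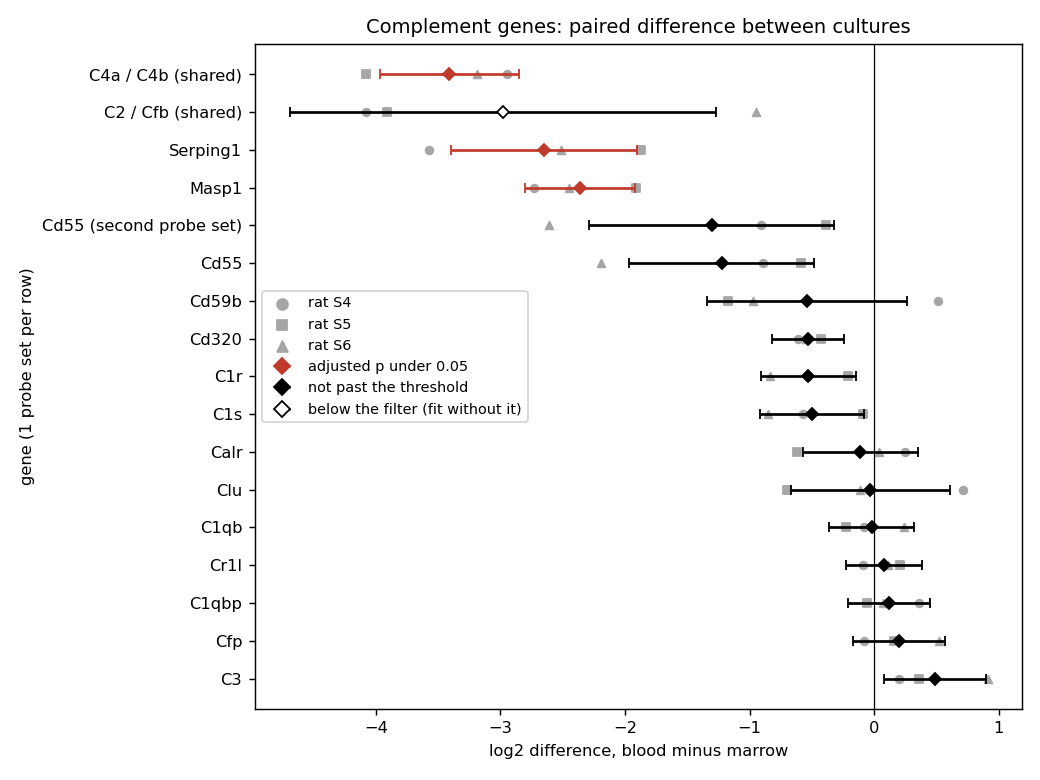
Blood minus marrow log2 difference (x axis) of each tested complement gene and of the 7 complement probe sets (rows), with 95% intervals from limma, grey symbols for each rat and red for an adjusted p under 0.05. Intervals of C4a/C4b, Serping1 and Masp1 reach no higher than -1.90. Those of C2/Cfb, both Cd55 probe sets, C1s, C1r and Cd320 also lie below 0, that of C3 lies above 0, and the others span 0. The intervals are not adjusted for the number of tests.

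C2, Cfb, C4a and C4b lie in the rat MHC on chromosome 20, with C4b apart, between the measured genes Notch4 and RT1-Da. Their nearest measured neighbours in RefSeq's gene order, up to 3 on each side, were 15 genes with 19 probe sets, 7 of them bright enough to be tested. With limma none of the 7 passed, against 3.13% of all tested probe sets, and 1 had an unadjusted p under 0.05, against 15.2%. The differences of all 19 lay between -0.37 and 0.47. Skic2, an RNA helicase gene between Cfb and C4a, differed by -0.15 ± 0.12, and Ehmt2, a histone methyltransferase gene beside C2, by -0.37 ± 0.14 (adjusted p = 0.674 and 0.287).

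**Figure D4:**
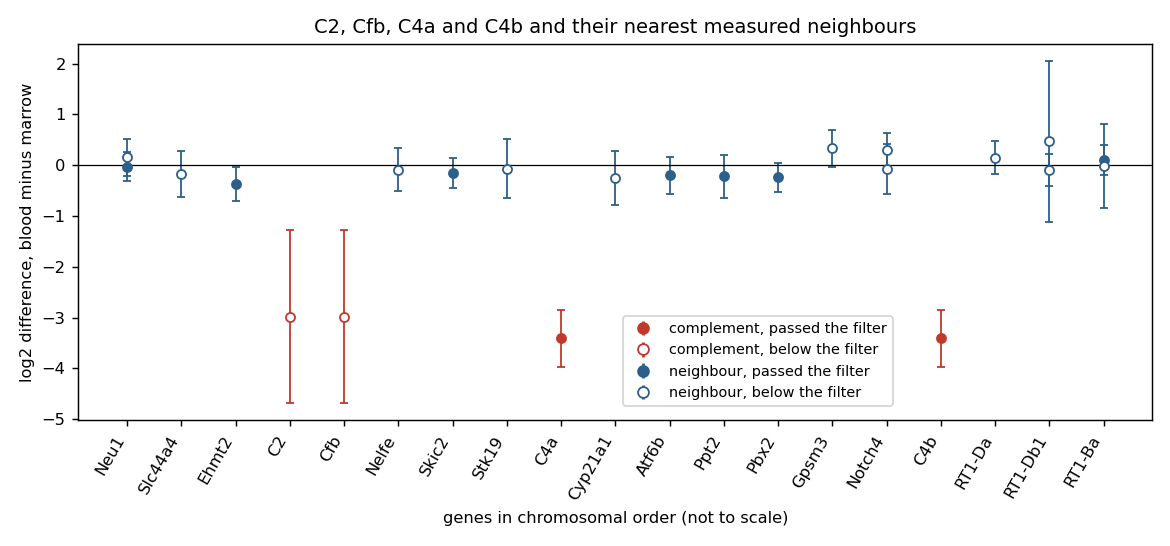
Blood minus marrow log2 difference with 95% interval (y axis) of C2, Cfb, C4a, C4b (red) and their nearest measured neighbours (blue) in chromosomal order, not to scale (x axis), with open circles below the filter. The value of each shared probe set is drawn at both of its genes, and neighbours lie between -0.37 and 0.47.

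Complement genes are known to respond to interferon and to NF-kB signals, and a list of genes inducible by these was read beside them. Of 32 listed, 12 had a tested probe set and none passed in limma, where 1.72% of all tested genes were called lower and 1.30% higher. At those shares a list this short would often hold no call. Of the 12, 1 had an unadjusted p under 0.05, against 14.7% of all tested genes. The median difference of the 12 was -0.09 (0.11 without rat S5). Irf1, an interferon-induced transcription factor, differed by -0.30 ± 0.26 (0.095 without rat S5), B2m by 0.26 ± 0.15 and Nfkbia, the NF-kB inhibitor gene, by 0.33 ± 0.19 (adjusted p = 0.716, 0.516 and 0.522). Psmb8 and Tap1 were too dim to be tested.

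Markers of macrophages and of stroma were read beside the complement genes. Of 15 macrophage genes on the array 11 were tested and none passed in limma, where 1.72% of all tested genes were called lower and 1.30% higher. An unadjusted p under 0.05 was found for 2 of the 11, against 14.7% of all tested genes. The median difference of the 11 was 0.40 (0.11 without rat S4). Summed signals (log2 undone) were 20795 to 26610 in blood and 14595 to 26504 in marrow cultures, with no value at 0. Cd68 was at 11.00, 10.94 and 11.00 in the blood cultures of rats S4, S5 and S6, against 9.64, 10.78 and 11.11 in their marrow cultures, while Ptprc, Csf1r and Itgam were too dim to be tested.

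The summed signals of the 14 stromal markers were 50775 to 59903 in blood and 53696 to 61326 in marrow cultures, with none at 0. The median difference of the 13 tested was 0.01, with members differing in both directions. Of the 13, 7 had an unadjusted p under 0.05 in limma, against 14.7% of all tested genes. Over all tested genes 1.72% were called lower and 1.30% higher. Pdgfra, a receptor that marks fibroblastic stroma, was at 8.91, 10.84 and 9.65 in blood against 11.90, 11.94 and 11.35 in marrow cultures and fell by 1.93 ± 0.34 (adjusted p = 0.0444), a call lost without rat S4 (difference -1.40, adjusted p = 0.302), without rat S6 (-2.05, 0.215), without the pairing (0.11), without a filter (0.17) and under 5 other settings. Of the 13 stromal markers tested, 1 fell (Pdgfra) and 1 rose, endoglin (Eng), at 10.52, 10.27 and 10.72 in blood against 8.25, 9.16 and 9.25 in marrow cultures (1.62 ± 0.23, limma, adjusted p = 0.0235), a call lost without rat S4 (difference 1.29, adjusted p = 0.252), without rat S6 (0.145) and without a filter (0.116). Nt5e (CD73) and Col1a1, a collagen I chain, differed by 0.77 ± 0.15 and 0.47 ± 0.13 with all blood above all marrow cultures, and did not pass (adjusted p = 0.0607 and 0.153). Like Serping1, Pdgfra was highest among blood cultures in rat S5, as were the matrix proteoglycans Lum and Dcn at 11.92 and 12.89 against 8.11 and 10.55 in rat S4 and 9.79 and 10.44 in rat S6. Lum and Dcn differed by -1.93 ± 0.69 and -1.38 ± 0.43 and did not pass (limma, adjusted p = 0.261 and 0.2). Other stromal markers, namely Eng, Vim, Fn1, Itgb1, Col1a1 and Col1a2, were instead lowest among blood cultures in rat S5 on their brightest probe sets. Thy1 lay above the table's median in only some cultures of each group and so missed the filter. The probe set of Thy1 with the wider range stood at 6.36, 9.80 and 6.97 in the blood cultures of rats S4, S5 and S6, against 9.66, 7.39 and 10.21 in their marrow cultures. It was thus lower in blood in rats S4 and S6 and higher in rat S5, a difference of -1.38 ± 1.22 (limma, adjusted p = 0.804 in the fit without a filter). Leaving out rat S5, the only rat with the opposite sign, necessarily widened the difference, to -3.27. The part of either cell type in the complement differences was not tested.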

How the data were processed

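The authors deposited 1 table of probe set signals for 6 arrays, taken here as log2 values because they run from 0 to 13.31 with a median of 8.18. GCOS is the only tool named, per the submitters' processing notes; how probes were summarised and normalized is not given in the sources read here. The signals were analysed unchanged (pseudocount 0), and 86 empty cells, none in a complement probe set, were left empty. After 57 control probe sets were removed from 15923, 7625 of 15866 passed the filter.

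The comparison used limma 3.58.1 (R 4.3.3), with lmFit, eBayes and two-sided tests. Rat was a fixed term, since the series' design text states that the cultures are paired by animal. After subtracting group means, the correlation between a rat's own 2 arrays was -0.253 for S4, 0.312 for S5 and 0.309 for S6, so the pairing rests on the labels. Adjusted p-values are over all tested probe sets; a gene with several kept probe sets is represented by the brightest. Array annotation gave 1 gene symbol to 12789 probe sets, several to 312 and none to 2822. The 9 genes and the lists were chosen with earlier results of these data known. Named were all probe sets of the 9 genes, other complement genes past the threshold and otherwise up to 4 of each list with the smallest p, set macrophage and inducible genes, the most similar genes and the chromosomal neighbours. The stromal markers and the complement genes below the filter were named after their values were seen. The fluidics stations, per the file headers, were 1 for rats S4 and S5 and 2 for rat S6, each with both kinds of culture. Tables and plots used Python 3.11.15, pandas 2.3.3, numpy 2.4.6, Biopython 1.88 and matplotlib 3.10.9.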

Additional observations from a re-analysis of the deposited data

How the results depend on the processing

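All 7 complement probe sets kept their sign under every alternative run. The count of those called, 2 with limma and Benjamini-Hochberg adjustment, was 1 without a filter, 1 with the stricter filter (above the median on all 6 arrays, where C4a/C4b was not tested), 1 with quantile normalization, 1 with a trended robust variance and 0 to 4 when 1 rat was left out, which leaves 1 residual degree of freedom. The 0 is without rat S4, where 3 of 6 complement probe sets and 5 of 14 complement genes had an unadjusted p under 0.05 in limma. The count of complement genes called, also 2, was 1 under each of those 4 settings and 0 to 3 when a rat was left out. With the stricter filter both Cd55 probe sets and Masp1 were likewise not tested. Over all probe sets 239 became 82 without a filter, 120 with the stricter filter, 143 with arrays scaled to a common trimmed mean (they differed by 10.2%), 137 with quantile normalization, 151 with fluidics station in place of rat, and 0 to 517 when a rat was left out. Without the replicate block by rat, 144 probe sets, 2 complement probe sets and 3 genes of the complement list were called. The third was Cd320 (limma, adjusted p = 0.0412), which is not known as a complement receptor, and the block changed no other complement call. Station 2 holds only rat S6, so the values without rat S6 are those within station 1. A filter chosen after seeing the data, above the median on at least 3 of the 6 arrays, kept 8135 probe sets and called 175, with C4a/C4b and Serping1 still among them (adjusted p = 0.00366 and 0.0198). Without a rat, the signs of 4 tested genes whose differences are given above, none of which passed, turned: Irf1 ranged over -0.565 to 0.095, Calr ranged over -0.29 to 0.145, Clu over -0.405 to 0.30 (0.005 without rat S6) and C1qb over -0.155 to 0.08 (0.005 without rat S4). Except where fewer rats or another set of tested probe sets enters by construction, the cause was not tested. Signals below the median of 8.18 have no known background, which limits the folds of C4a/C4b and Masp1.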
